A study of Drosophila busckii and Drosophila melanogaster and Drosophila virilis with 5 samples.

Results

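Chromosome arm 3R of Drosophila embryos was described from its boundaries between topologically associating domains (TADs). All boundaries placed on 3R were taken from the list of each of 3 species, and each interval from one boundary centre to the next was counted as a TAD. This gave 519 of 2127 boundaries and 518 TADs in D. virilis, 478 of 2134 boundaries and 477 TADs in D. busckii, and 538 of 2209 boundaries and 537 TADs in D. melanogaster. For D. virilis the 3508 genes that the deposited annotation places on 3R, of 14493 on all arms, were included. The 4332 genes on 3R of D. melanogaster, of 18164, came from Ensembl release 115. Genes of D. busckii were not used here.

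In situ Hi-C had been performed on mixed-sex embryos of stage 15 to 16 of D. virilis (labelled as stock 15010-1051.0), D. busckii (stock 13000-0081.31) and D. melanogaster (labelled w1118 Oregon R). No embryo was treated or mutant in any gene under study, and 2 replicates per species were merged, so that 1 list of boundaries stands for a species. The D. busckii embryos were fixed in a single step while being broken up, whereas those of the other species were also fixed intact beforehand. Only the D. busckii samples were treated with T4 DNA polymerase. By the paper's counts, useful Hi-C reads were most numerous for D. busckii and fewest for D. melanogaster, and the D. busckii assembly is smaller than that of D. virilis. Species, protocol and read depth therefore cannot be told apart in any comparison of species below. The 3R sequence of D. virilis is an assembly that the authors ordered with these same Hi-C reads, and that of D. busckii is their own assembly. Boundaries and TADs of 1 list share 1 map and are not replicates. With 1 list per species there is no spread between samples, no test was made, and no value below is called particular to 3R or to a species.

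Hi-C counts how often pairs of loci are ligated together because they lie close in the nucleus. A TAD is a block of chromatin in which ligations are frequent, whereas few cross its boundaries, and enhancers usually act within it. In flies many boundaries lie at the promoters of broadly active genes, where insulator and promoter proteins bind short DNA motifs, and long TADs are often silent or hold few, developmentally regulated genes. Arm 3R is Muller element E, which carries the Hox genes, and in D. melanogaster its low coordinates lie next to the centromere. The deposited score of a boundary is lower where fewer contacts cross it, and it was compared only within a list, since each map has its own scale.

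The D. melanogaster sequence around 3R boundaries was read because short promoter motifs are known at fly boundaries, and the matches at the lowest-scoring boundaries that hold them are shown. Capitals mark the match to Motif 1 (GGTCACACT, bound by the zinc finger protein M1BP) or to the DRE (TATCGATA, bound by Dref and BEAF-32). Both strands were searched within 500 bp of the boundary centre, and a match is a description of letters and not a binding site. The sequences are the plus strand of the RefSeq Release 6 assembly, and each boundary is named by the gene whose start is nearest to it.
ATPsynC boundary, Motif 1 on the minus strand, chr3R:31219778-31219806: caataggcgcAGTGTGACCataacagtag
trx boundary, Motif 1 on the minus strand, chr3R:14286868-14286896: acgaccggacAGTGTGACCgcgccgataa
atl boundary, Motif 1 on the minus strand, chr3R:24625554-24625582: aaccgtttgcAGTGTGACCttatgatgac
RpL27 boundary, Motif 1 on the plus strand, chr3R:25685150-25685178: cctactatctGGTCACACTggcacaagta
bigmax boundary, DRE, chr3R:27288762-27288789: atgatagtcaTATCGATAtttcggccac
Vha55 boundary, DRE, chr3R:12628001-12628028: cgccgtatgtTATCGATAaatttggaag
Vha13 boundary, DRE, chr3R:19645005-19645032: gctgactagcTATCGATAtcaccgatag
RpL27 boundary, DRE, chr3R:25685074-25685101: gtcgtcttttTATCGATActtagtggca

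ATPsynC encodes a subunit of mitochondrial ATP synthase, and Vha55 and Vha13 encode subunits of the proton pump that acidifies vacuoles. The product of trx is the histone methyltransferase trithorax, atl encodes a GTPase that fuses membranes of the endoplasmic reticulum, bigmax encodes a partner of the transcription factor Mondo, and RpL27 encodes a ribosomal protein. The match lay 364 bp from the boundary centre at ATPsynC, 174 bp at trx, 208 bp at atl, 164 bp at bigmax, 172 bp at Vha55 and 438 bp at Vha13. The boundary at RpL27 held both motifs, Motif 1 at 131 bp and the DRE at 54.5 bp from its centre. Scores at these boundaries were -0.291 at ATPsynC, -0.244 at trx, -0.230 at atl, -0.285 at bigmax, -0.282 at Vha55 and -0.267 at Vha13, against -0.102 at RpL27. The RpL27 boundary was added because ribosomal protein genes lay close to boundaries on this arm, as described further on.

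Of the 538 boundaries on 3R of D. melanogaster, 53 had Motif 1 within 500 bp (9.85%, 95% Wilson interval 7.61 to 12.7%), against 1.01% of 30679 consecutive windows of the same length on the arm. The DRE, whose letters read alike on both strands, was at 82 boundaries (15.2%, interval 12.5 to 18.5%), against 2.34% of windows. Both shares were several times those of the windows, which cover the whole arm. Most of these boundaries lie near a gene start, as given further on, and windows at gene starts alone were not compared. A CTCF-like match (AGNNGGCGC) was at 62 boundaries (11.5%, interval 9.09 to 14.5%), against 8.90% of windows, and a GAGA match (GAGAGAG) was at 80 (14.9%, interval 12.1 to 18.1%), against 10.6%. On the other arms of D. melanogaster the shares of boundaries were 10.7% for Motif 1, 13.8% for the DRE, 14.2% for the CTCF-like match and 14.9% for GAGA, so 3R lay close to them, with its CTCF-like share the lower by most. These intervals cover counting error only. Boundaries with a match had a median score of -0.101 for Motif 1, against -0.0810 without it, -0.101 for the DRE, against -0.0794, and -0.0973 for the CTCF-like match, against -0.0813, so each was lower with the match. With the GAGA match the median was higher, -0.0770 against -0.0846. None of the 10 lowest-scoring boundaries had Motif 1, the DRE or the CTCF-like match and 2 had the GAGA match, and the first with Motif 1 was at rank 12, the first with the DRE at rank 13 and the first with the CTCF-like match at rank 25.

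D. virilis had the longest arm between outermost boundaries, 37.4 Mb, against 23.4 Mb in D. busckii and 30.7 Mb in D. melanogaster. The boundary density per Mb was 13.9 for D. virilis, 20.4 for D. busckii and 17.5 for D. melanogaster. The span of D. virilis was 1.22 times that of D. melanogaster with 0.965 times as many boundaries, and that of D. busckii was 0.762 times as long with 0.888 times as many. The median TAD measured 38.7 kb in D. virilis (95% exact binomial interval from ranks 35.7 to 42.4 kb), 33.7 kb in D. busckii (30.9 to 37.1 kb) and 34.5 kb in D. melanogaster (32.6 to 37.8 kb). These intervals are for the median, treat the TADs of a map as independent draws, which they are not, and do not cover the spread among embryos. The median differed by 4.24 kb (D. virilis minus D. melanogaster), by -0.764 kb (D. busckii minus D. melanogaster) and by 5.0 kb (D. virilis minus D. busckii).

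The species were further apart in their long TADs than in their medians. The 90th percentile of TAD length was 189.6 kb in D. virilis, 109.3 kb in D. busckii and 137.6 kb in D. melanogaster, while the 10th percentile was 9.15 kb, 8.33 kb and 7.23 kb in the same order. At the 90th percentile D. virilis stood at 1.38 times D. melanogaster and D. busckii at 0.794 times. TADs of 150 kb or longer numbered 65 of 518 in D. virilis (12.5%, against 12.6% over all arms), 32 of 477 in D. busckii (6.71%, against 6.67%) and 47 of 537 in D. melanogaster (8.75%, against 8.4%). In each species the share on 3R was therefore near that of the whole list. They covered 49% of the span in D. virilis, 28.2% in D. busckii and 38.2% in D. melanogaster. On the other long arms together such TADs covered 48.4%, 30.3% and 38.0% in the same order. Put another way, 50% of the arm lay in 68 TADs of D. virilis, 83 of D. busckii and 78 of D. melanogaster. At the other end, TADs of 10 kb or shorter numbered 58 in D. virilis, 61 in D. busckii and 80 in D. melanogaster (11.2%, 12.8% and 14.9% of TADs). Among the other long arms the share ranged from 9.05 to 13.4% in D. virilis, 10.6 to 14.2% in D. busckii and 13.4 to 16.1% in D. melanogaster. The share on 3R thus lay within the range of the other arms in each species. The shortest TAD was 1.55 kb in D. virilis, 1.05 kb in D. busckii and 1.31 kb in D. melanogaster.

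**Figure D1:**
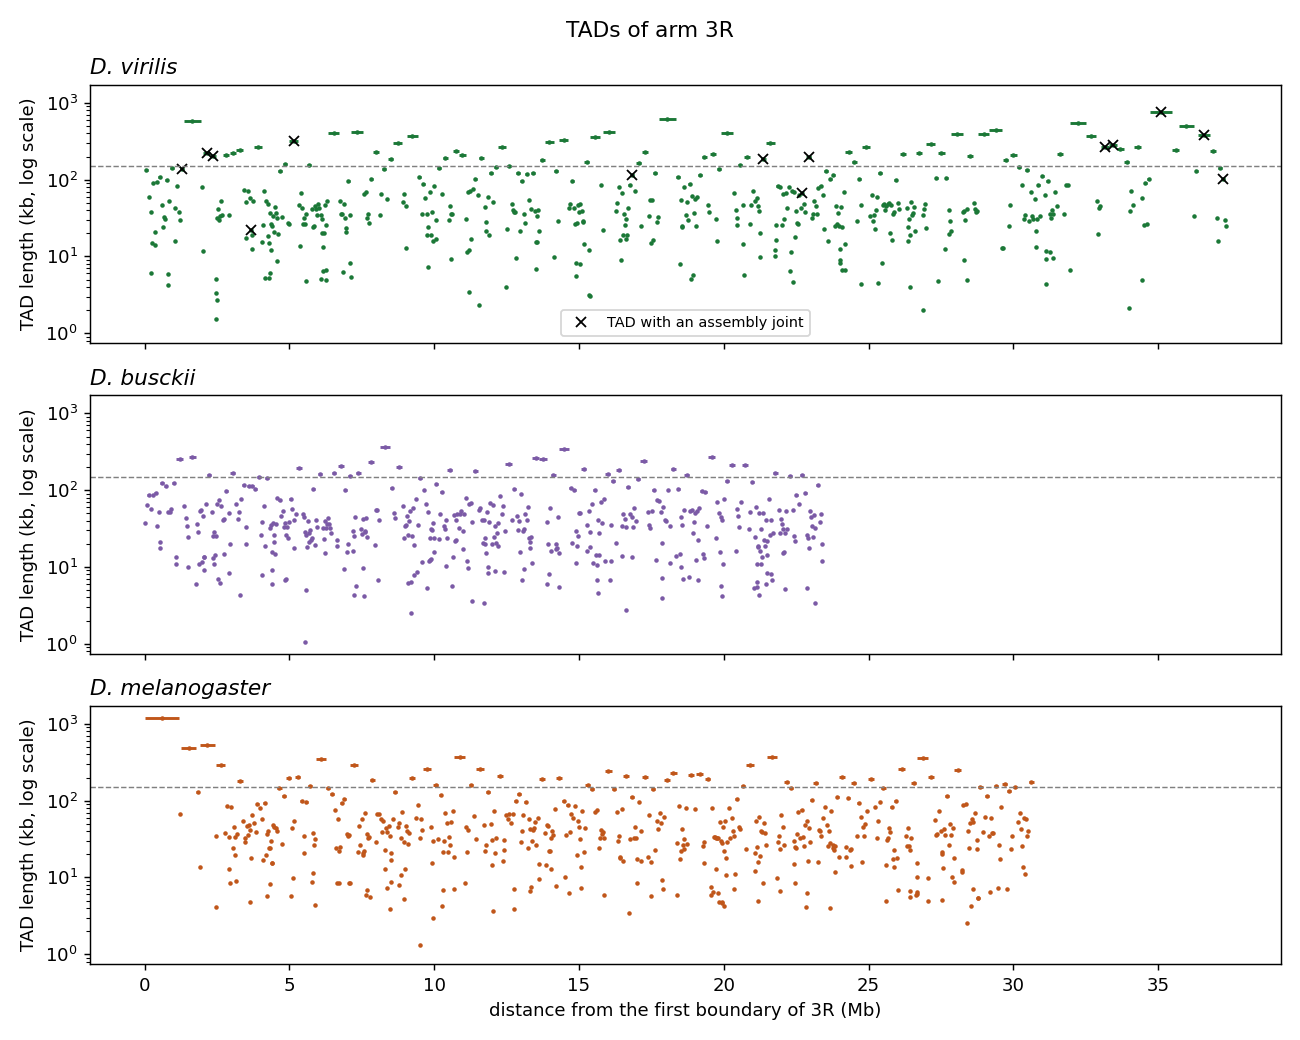
Each bar with a dot at its middle is 1 TAD of arm 3R, drawn over its extent from the first boundary (horizontal axis, Mb) at the height of its length (vertical axis, kb, log scale), with D. virilis on top, D. busckii in the middle and D. melanogaster at the bottom; the dashed line is 150 kb and crosses are TADs of D. virilis with an assembly joint. The single longest bar lies near the high-coordinate end in D. virilis (751 kb) and at the low-coordinate end in D. melanogaster (1205 kb), whereas in D. busckii none exceeds 361 kb.

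The spacing was uneven along the arm in a different way in each species. The stretch between the outermost boundaries was divided into 10 equal segments, numbered from low to high coordinates. No source used here states which end of 3R is centromeric in D. virilis or D. busckii. Segments of the same number are therefore not matched between species. In D. virilis the boundary density was 14.2, 19.3, 12.9, 14.7, 13.4, 15.0, 18.5, 12.3, 11.8 and 6.96 per Mb. In D. busckii it was 16.7, 20.9, 22.6, 18.4, 22.6, 22.2, 18.4, 18.4, 17.1 and 26.9 per Mb. In D. melanogaster it was 5.54, 18.6, 21.2, 15.6, 20.2, 16.3, 21.8, 18.6, 18.6 and 18.9 per Mb. D. virilis thus had its sparsest segment at the high end, D. melanogaster at the low end next to the centromere, and D. busckii had no segment below 16.7 per Mb and its densest one at the high end. The densest segment had 2.77 times the density of the sparsest in D. virilis, 1.62 times in D. busckii and 3.94 times in D. melanogaster.

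The median TAD was longest in the sparsest segment of each species. Over segments 1 to 9 of D. virilis the median ranged between 31.2 kb (segment 2) and 45.5 kb (segment 3), against 82.0 kb in segment 10. Over segments 2 to 10 of D. busckii it ranged between 26.9 kb (segment 10) and 42.9 kb (segment 9), against 51.3 kb in segment 1. Over segments 2 to 10 of D. melanogaster it ranged between 29.4 kb (segment 8) and 39.8 kb (segment 5), against 52.4 kb in segment 1. Without the sparsest segment the arm still had a median of 38.4 kb in D. virilis, 32.7 kb in D. busckii and 34.4 kb in D. melanogaster, and its long TADs still covered 46.2%, 28.1% and 33.4% of the rest, an alternative chosen after the profile was seen.

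**Figure D2:**
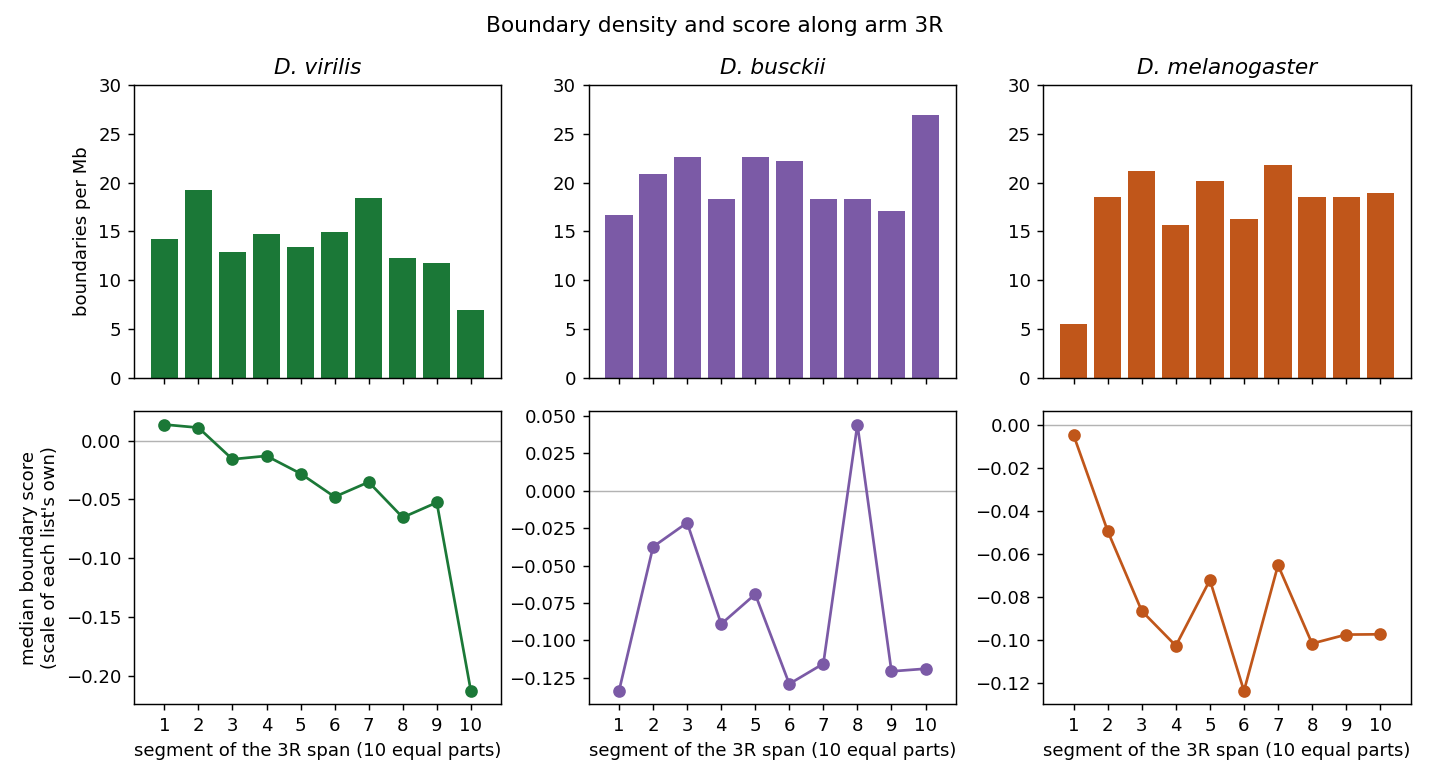
Upper row, boundaries per Mb in each of 10 equal segments of the 3R span; lower row, median score of the boundaries in the segment, on the scale of each list. Density falls to 6.96 per Mb in segment 10 of D. virilis with the lowest median score of its arm (-0.213), and to 5.54 per Mb in segment 1 of D. melanogaster with the highest median score of its arm (-0.00504).

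The sparse ends of D. virilis and D. melanogaster were alike in gene content and opposite in median score. Segment 10 of D. virilis held 50 coding genes, 13.4 per Mb, against 76.0 to 104.7 per Mb in its other segments. Segment 1 of D. melanogaster held 42 coding genes, 13.7 per Mb, against 98.0 to 146.9 per Mb in its other segments. The 26 boundaries of the D. virilis end had a median score of -0.213 (quartiles -0.282 and -0.0874), and 11 of them (42.3%) were among the 10% of lowest scores in the whole D. virilis list. The 17 boundaries of the D. melanogaster end had a median of -0.00504 (quartiles -0.106 and 0.145), with 2 (11.8%) among the lowest 10% of that list and 5 (29.4%) among the highest 10%. Those 2 had the lowest scores of the whole arm, -0.357 and -0.350. The end of D. virilis therefore had few boundaries that ranked low in their list, and that of D. melanogaster few boundaries of which 8 of 17 scored above 0.

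In D. virilis the score also ran along the rest of the arm. The median score of segments 1 to 10 was 0.0136, 0.0110, -0.0159, -0.0131, -0.0281, -0.0478, -0.0352, -0.0653, -0.0526 and -0.213, so that the 2 lowest-numbered segments were the only ones above 0. In D. busckii the medians lay between -0.134 (segment 1) and -0.0213 (segment 3) with 1 exception, segment 8, at 0.0443. In D. melanogaster they lay between -0.124 (segment 6) and -0.0495 (segment 2) outside segment 1. A weak likeness of neighbours was seen in all 3 lists, since the score of a boundary and that of the next had a Spearman rho of 0.230 in D. virilis (518 pairs), 0.193 in D. busckii (477 pairs) and 0.121 in D. melanogaster (537 pairs). The length of a TAD and that of the next had a rho of 0.0204, -0.0496 and -0.0560. These are descriptions of pairs that share boundaries and a map.

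The longest TAD of D. virilis 3R, and 7 others of 150 kb or longer, lay in segment 10. The other segments held 4 to 9 such TADs each, with 9 in segment 8. In segment 10 they made up 74.2% of the length of its TADs, against 45.0% in segment 1. The longest ran over positions 35153472 to 35904195 (751 kb) with scores of -0.382 and -0.341 at its ends, which ranked 4th and 8th from the lowest on the arm. It held 12 coding genes, 16.0 per Mb, all named by computed GJ numbers (GJ11149, GJ11179 and GJ11181 among them), and coding genes covered 21.2% of it. The fifth longest, at 36146064 to 36644921 (499 kb), held 3 coding genes, GJ11142, GJ11139 and GJ26428, of which GJ11142 alone spans 261 kb. The arm had 3 runs of at least 3 consecutive TADs of 100 kb or longer, and all lay beyond 33.4 Mb: 4 TADs at 33445136 to 34417208, 4 at 35052234 to 36644921 and 3 at 36678427 to 37433475. These runs held 20, 22 and 5 coding genes.

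Joints between assembled pieces fall in this end too. The 3R sequence of D. virilis was put together from 20 pieces of 10 scaffolds, with 19 joints, and 14 TADs contain a joint. The deposited chain file leaves 5000 bp at each joint, which differs from the spacer the study's methods describe, so the length of a TAD with a joint is uncertain by the gap it holds. Those 14 had a median of 201.2 kb, and 9 of them are among the 65 long ones. The 751 kb TAD contains a joint 49.8 kb from its left end. Every run of TADs of 100 kb or longer given above includes a TAD with a joint. Segment 10 has 3 TADs with a joint, and without them its median was 57.0 kb, with 6 TADs of 150 kb or longer instead of 8. Whether a joint lengthens a TAD was not tested. Of the 19 joints 1 lay within 5000 bp of a boundary.

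The next 3 in length after the 751 kb TAD of D. virilis lay in segments 5, 1 and 9 and held more genes. The second, at 18173623 to 18786974 (613 kb), held 27 coding genes, 44.0 per Mb. The third, at 1787312 to 2367513 (580 kb), held 42 coding genes, among them the odorant-binding protein genes Obp83a, Obp83abL1, Obp83cd and Obp83g, whose products carry odorants in the fluid around olfactory neurons. The fourth, at 32364749 to 32919010 (554 kb), also held 42, among them the esterase gene EstS. Their end scores were -0.173 and -0.0274, 0.240 and -0.169, and -0.115 and -0.0886.

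In D. melanogaster the 3 longest TADs lay close together at the centromeric end, and giant genes covered 2 of them almost whole. The longest, at 1277027 to 2482412 (1205 kb), held 1 coding gene, Myo81F, which encodes an unconventional myosin and is annotated over 1966 kb, reaching beyond both ends of the TAD. The third, at 2549077 to 3041425 (492 kb), held only Pzl, a mechanosensitive channel gene annotated over 709 kb with 3 boundaries inside it. The second, at 3183033 to 3717169 (534 kb), held spok, a gene of ecdysone synthesis, Parp1, the poly(ADP-ribose) polymerase, and Alg-2. The end scores of these TADs included both the lowest score of the arm, -0.357 at the left end of the third, and 3 scores above 0, which were 0.351 at the left end of the first, 0.218 at the left end of the second and 0.106 at its right end. The next 2 lay in the body of the arm and were gene-rich, at 11974881 to 12350554 (376 kb, 48 coding genes) and 22751345 to 23118317 (367 kb, 41 coding genes).

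D. busckii had no TAD of such length. Its 5 longest, at 8170016 to 8531005 (361 kb), 14368735 to 14713629 (345 kb), 19496070 to 19769484 (273 kb), 1574481 to 1846329 (272 kb) and 13427948 to 13689967 (262 kb), lay in segments 4, 7, 9, 1 and 6. They were thus spread over the arm and not gathered at an end. The sixth, 254 kb, follows directly on the fifth behind a boundary that scored 0.193. The densest stretch of the arm, 10 consecutive TADs within 0.173 Mb at 21199836 to 21372567, lay in segment 10. In D. virilis the densest 10 spanned 0.180 Mb at 6519482 to 6699407, with 38 coding genes that include ksr, a scaffold of Ras signalling. In D. melanogaster they spanned 0.209 Mb at 21014343 to 21223740, also with 38 coding genes, among them Rab11, slmb and AnxB9.

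The gene-richest TADs on the arm were of middle to great length. In D. virilis the first was at 21695706 to 21882012 (186 kb), with 55 coding genes, 295.2 per Mb, among which nos, the germ plasm repressor nanos, is the only one with a name. This TAD contains a joint. The next 2 were the 580 kb and 554 kb TADs already given. In D. melanogaster the first 3 were the 376 kb TAD, which holds the orphan nuclear receptor gene svp, the tachykinin gene Tk and 3 Cyp313a cytochrome genes, a TAD of 354 kb at 7187055 to 7541296 with 45 coding genes, among them Gld, Obp84a and 8 alpha-esterase genes, and the 367 kb TAD with p53, sav, lmd, Or94a and Or94b. The median number of coding genes per TAD was 4 in D. virilis and 5 in D. melanogaster, and 26 TADs of D. virilis and 18 of D. melanogaster held the midpoint of none.

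Longer TADs had lower gene density in both annotated species. When the TADs of D. virilis were divided by length into 5 classes, the classes held 274.5, 185.3, 142.1, 87.3 and 57.0 coding genes per Mb from the shortest (1.55 to 18.8 kb) to the longest (96.8 to 751 kb). In D. melanogaster the classes held 287.7, 234.4, 168.3, 116.7 and 72.2 per Mb from the shortest (1.31 to 15.0 kb) to the longest (73.2 to 1205 kb). TADs of 150 kb or longer held 969 of 3250 coding genes placed in TADs of D. virilis (29.8%, in 49% of the span) and 711 of 3417 in D. melanogaster (20.8%, in 38.2% of the span). The count of genes in them varied between 1 and 55 in D. virilis and between 1 and 48 in D. melanogaster.

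**Figure D3:**
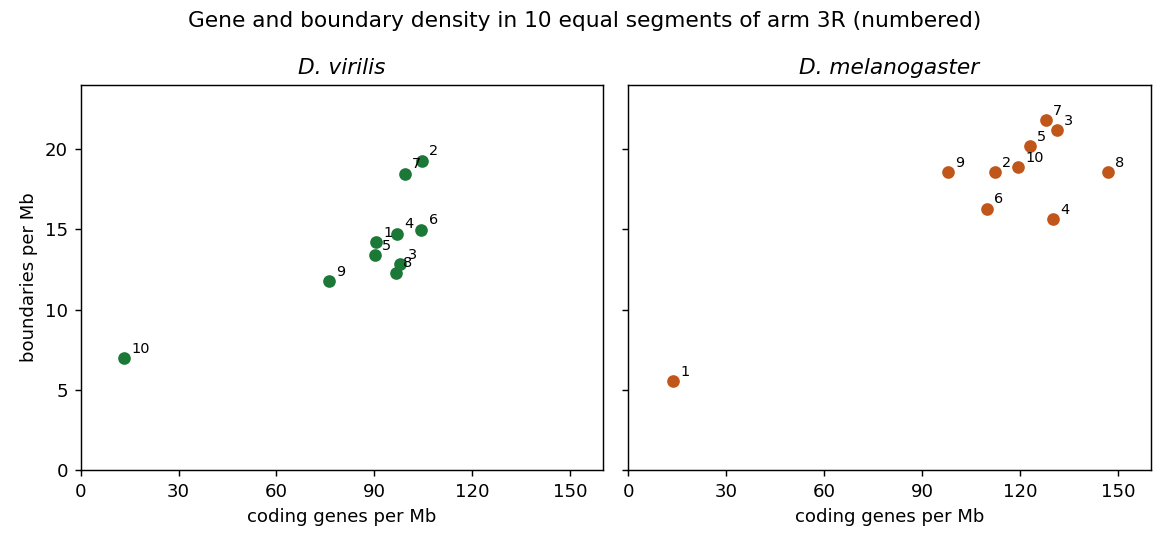
Each point is 1 of 10 equal segments of the 3R span, numbered from low coordinates, with coding genes per Mb on the horizontal axis and boundaries per Mb on the vertical axis (left, D. virilis; right, D. melanogaster). Segment 10 of D. virilis (13.4 genes and 6.96 boundaries per Mb) and segment 1 of D. melanogaster (13.7 genes and 5.54 boundaries per Mb) stand apart from the other 9 segments of their species.

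The 3508 genes on 3R of D. virilis comprised 3278 coding genes, 62 tRNA genes, 32 microRNA genes, 28 snoRNA genes, 10 snRNA genes, 56 other noncoding genes and 42 pseudogenes. Boundaries fell inside 276 coding genes (8.42%), against 332 of 3421 in D. melanogaster (9.70%). Genes with a boundary inside were longer, with a median of 5.37 kb against 2.05 kb for the others in D. virilis, and 5.59 kb against 1.98 kb in D. melanogaster. A longer gene offers more positions for a boundary, and no share expected from length was computed. Even so, many very long genes had none: of 26 coding genes over 100 kb in D. virilis 7 held a boundary, and of 18 in D. melanogaster 9 did. The longest coding gene of D. virilis 3R, GJ11152 (410 kb at 34560561 to 34970703, minus strand), held 5 boundaries, the most of any gene on the arm in either species. The next, GJ14370 (308 kb), lies before the first boundary and GJ14122 (174 kb) beyond the last, so neither could hold one. Of the others, GJ10104 (225 kb) held 1 boundary, and GJ11142 (261 kb), GJ22521 (222 kb) and GJ14240 (184 kb) held none. In D. melanogaster pum, which encodes the translational repressor Pumilio (171 kb), and Dys, which encodes dystrophin (136 kb), held none, whereas hth, a homeobox gene (132 kb), and fru, the sex determination transcription factor gene (131 kb), held 1 each.

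Most boundaries lay at gene starts. The centre was within 1000 bp of an annotated start at 350 of 519 boundaries on 3R of D. virilis (67.4%), against 65.5% over all arms, and at 425 of 538 on 3R of D. melanogaster (79.0%), against 76.5% over all arms. The share on the arm was near that of the whole list in both. The median distance was 469 bp in D. virilis and 243.5 bp in D. melanogaster, and the annotations differ in the number of noncoding genes and starts, so these are not set against each other. Boundaries near a start had a median score of -0.0456 on 3R of D. virilis, and the other 169 a median of 0.00745. In D. melanogaster they had a median of -0.0997, and the other 113 a median of 0.0255.

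By annotation, 226 boundaries of D. virilis 3R were intergenic (43.5%), 128 were in introns (24.7%), 79 in 5′ UTRs (15.2%), 75 in coding sequence (14.5%), 8 in 3′ UTRs and 3 in other exons. In D. melanogaster 204 were intergenic (37.9%), 135 in introns (25.1%), 94 in 5′ UTRs (17.5%), 68 in coding sequence (12.6%), 28 in 3′ UTRs and 9 in other exons. Intergenic boundaries were often between divergent genes, which start back to back: 99 of 226 in D. virilis (43.8%) and 102 of 204 in D. melanogaster (50%), while divergent gaps made up 25.9% of the gap length between genes of the arm in either species. Between convergent genes, which end towards each other, were 23 in D. virilis (10.2%, such gaps being 21.9% of gap length) and 12 in D. melanogaster (5.88%, against 21.3%). The 23 convergent boundaries of D. virilis had a median score of 0.0827, against -0.0469 for the 99 divergent ones. It was -0.0647 for the 104 between genes on the same strand. In D. melanogaster the medians were -0.0779 for convergent, -0.121 for divergent and -0.0548 for same-strand boundaries.

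Among single boundaries, 1 near mod(mdg4) was among the lowest-scoring of the arm in both annotated species. This gene encodes a BTB-domain protein of insulator complexes. In D. virilis the boundary at 1105636 to 1106657 scored -0.385, the third lowest on 3R, and its centre lay 0.452 kb from the mod(mdg4) start and 1.87 kb from the start of GJ14310 on the other strand. In D. melanogaster the boundary at 21377209 to 21378998 scored -0.325, the sixth lowest, 0.703 kb from the mod(mdg4) start and 0.874 kb from that of tin, the heart and muscle homeobox gene, also on the other strand. No gene named tin is on 3R of the D. virilis annotation.

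The other lowest boundaries of D. virilis were at 4204676 to 4205624 (-0.449, 1.71 kb from the GJ24692 start), 4474278 to 4475699 (-0.403, 0.390 kb from GJ24685), 35153190 to 35153754 (-0.382, 0.855 kb from GJ11179) and 19538912 to 19540206 (-0.378, 0.074 kb from GJ23394). The first and second of these are the ends of 1 TAD of 269.8 kb. In D. melanogaster the lowest were at 2545935 to 2552220 (-0.357) and 3167908 to 3170838 (-0.350, in coding sequence of Pzl), with no gene start within 94.2 kb of either. They were followed by 22354192 to 22356287 (-0.331, in an intron, 1.45 kb from the start of Sar1, a GTPase of vesicle budding), 30056582 to 30057064 (-0.330, 0.036 kb from the shared start of CG7950 and the RNase P subunit gene Rpp14a) and 19650119 to 19650711 (-0.327, 0.603 kb from CG31219). In D. busckii the lowest were at 20681509 to 20684842 (-0.705), 480423 to 483672 (-0.593), 2404173 to 2407262 (-0.580), 23232613 to 23236351 (-0.524) and 14265444 to 14266290 (-0.519). They came from segments 9, 1, 2, 10 and 7. At the other extreme the highest score on the arm was 0.792 in D. virilis (26909103 to 26910096, in an intron), 0.751 in D. busckii (19239023 to 19242249) and 0.544 in D. melanogaster (5035623 to 5036751, between convergent genes).

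Of the gene lists placed on 3R of D. melanogaster, ribosomal protein genes lay nearest to boundaries. The start was within 1 kb of a boundary centre for 14 of 23 (60.9%), with a median of 0.337 kb, against 586 of 3415 coding genes of the arm (17.2%), with a median of 8.27 kb. RpL27 (0.018 kb), RpS3 (0.021 kb), RpL32 (0.0315 kb), RpL13A (0.0585 kb) and RpS27 (0.064 kb) were the closest. At these 14 boundaries the DRE was found at 4 (RpL13A, RpL27, RpL6 and RpS7), the CTCF-like match at 4, Motif 1 at RpL27 and the GAGA match at RpL34a. Over all 538 boundaries of the arm the shares were 15.2% for the DRE, 11.5% for the CTCF-like match, 9.85% for Motif 1 and 14.9% for GAGA. With so few boundaries no difference from these shares is drawn. The farthest member was RpL10Aa, at 58.6 kb. The 3 ribosomal protein genes placed in D. virilis did not lie as close: RpS3 was 26.6 kb from a boundary, RpL32 3.11 kb and RpL15 1.66 kb, so 0 of 3 were within 1 kb, against 14.2% of its 3250 coding genes. Signalling genes had 5 of 16 within 1 kb, namely Axn (0.143 kb) and Apc (0.431 kb) of the Wnt pathway, the chromatin remodeller gene osa (0.271 kb), the insulin receptor gene InR (0.374 kb) and the kinase gene Akt (0.830 kb), and all 16 were in different TADs.

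Clusters of related genes differed in how many TADs they took up. The 12 placed genes of the Enhancer of split complex, which encode targets of Notch signalling and the corepressor Groucho, shared 1 TAD of 60.5 kb with 2 other coding genes (14 in all), in which the gro start was 0.596 kb from the right boundary. All Osiris genes but Osi22 and Osi23 shared 1 TAD of 197 kb, which held 34 coding genes in all, them included. The Osiris genes, which act in cuticle formation, had 0 of 24 starts within 1 kb and a median of 57.3 kb. The odorant receptor genes had 0 of 15 and a median of 43.0 kb, in 11 TADs whose median over the genes was 204.1 kb. Developmental transcription factor genes had 0 of 16 within 1 kb and a median of 19.4 kb. Among these, the GATA factor genes srp, GATAe and pnr shared a TAD of 68.0 kb, E5 and ems one of 67.6 kb, and svp was 91.8 kb from a boundary. Of the NK cluster, tin and bap shared a TAD of 29.4 kb and lbl and lbe one of 80.5 kb, C15 and slou being alone in theirs among the list, and tin, 0.874 kb from a boundary, was the only one of 6 within 1 kb. The 6 Hsp70 genes lay in 2 TADs, 4 of them in one of 160.4 kb, with Hsp70Ba 0.313 kb from a boundary, and the 4 placed Hsp70 genes of D. virilis shared 1 TAD of 85.3 kb. Genes of insulator proteins had 1 of 7 within 1 kb, mod(mdg4), and Ibf1 and Ibf2 shared a TAD of 29.2 kb.

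**Figure D4:**
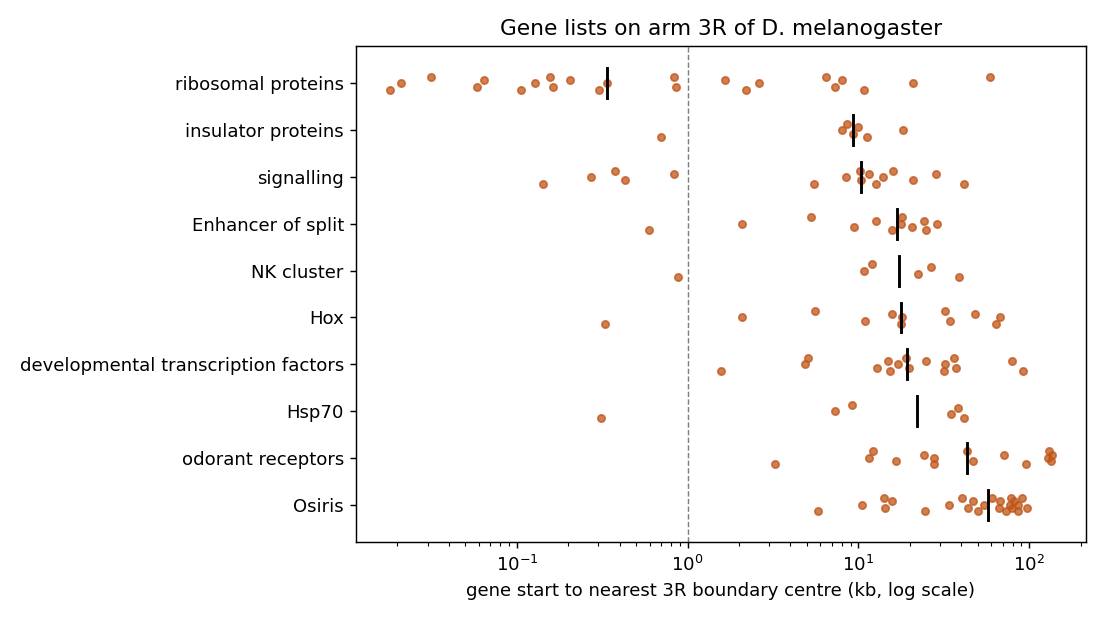
Each point is a gene of 3R of D. melanogaster, at the distance of its start from the nearest boundary centre (horizontal axis, kb, log scale), by gene list, with the list's median as a black bar and 1 kb as a dashed line. Of the ribosomal protein genes 14 of 23 lie left of the line, whereas no Osiris gene, odorant receptor gene or developmental transcription factor gene does.

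The Hox genes lie in 2 groups on D. melanogaster 3R, in 7 TADs for 12 genes, with lab, pb, zen2, zen and bcd in 1 TAD of 99.1 kb, and bcd, 0.327 kb from a boundary, was the only one of 12 within 1 kb. In D. virilis lab was in a TAD of 42.4 kb and zen and bcd in the next, of 85.9 kb. Antp and Ubx were in TADs of 164.1 kb and 232.1 kb, against 153.9 kb and 141.4 kb in D. melanogaster. The TAD of abd-A measured 64.0 kb in D. virilis and 71.4 kb in D. melanogaster. The grouping differed: in D. virilis Ubx (46.2% of the span) lay near Antp (45.7%) and apart from abd-A (62.7%). In D. melanogaster Ubx (50.3%) lay near abd-A (50.6%) and apart from Antp (18.6%).

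The genes could be followed between both annotated species through shared symbols. Of 85 coding genes of D. virilis 3R with a name other than a computed number, 60 had the same symbol on 3R of D. melanogaster, 2 on another arm and 23 nowhere. Their order was shuffled: of 59 consecutive pairs in D. virilis, 22 were consecutive among these genes in D. melanogaster, and the rho of the 2 orders was 0.182. The lengths of their TADs nevertheless went together. Over the 60 genes, the TAD length in D. virilis and in D. melanogaster had a Spearman rho of 0.779, and over the 52 distinct pairs of TADs one of 0.762. The distance between a gene start and the nearest boundary had a rho of 0.745. These are descriptions over genes that were named because they were studied, that in part neighbour each other, and whose TADs come from 1 map per species. The TAD of D. virilis was the longer in 41 of the 52 pairs, with a median ratio of 1.28, and 29 pairs were within 1.5 times of each other.

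Several of these TADs were long in both species. The TAD of Gld, the glucose dehydrogenase gene, and its neighbour Obp84a measured 394 kb in D. virilis and 354 kb in D. melanogaster, with 36 and 45 coding genes. The metallothionein genes MtnB, MtnC and MtnD shared a TAD of 268 kb in D. virilis and of 222 kb in D. melanogaster. The TAD of fru measured 221 kb in D. virilis and 206 kb in D. melanogaster, and that of pros, the neuronal fate homeobox gene, 215 kb and 160 kb. The starts of fru (87.9 kb and 92.1 kb) and pros (77.7 kb and 79.1 kb) were also alike in their distance from a boundary. The desaturase genes Desat1 and Desat2, which make cuticular pheromones, shared TADs of 43.2 kb in D. virilis and 41.8 kb in D. melanogaster.

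In 10 pairs the TAD of D. virilis was at least 2 times as long, and in 3 pairs that of D. melanogaster was. That of osk, the germ plasm organiser gene, measured 136 kb in D. virilis and 5.90 kb in D. melanogaster. That of ort, a histamine receptor gene of the eye, measured 212 kb and 28.4 kb, and that of trx 130 kb and 29.2 kb. The start of trx was nevertheless 0.346 kb from a boundary in D. virilis and 0.153 kb in D. melanogaster, where the Motif 1 match shown above lies. The 3 pairs with the longer TAD in D. melanogaster were lab (42.4 kb in D. virilis and 99.1 kb in D. melanogaster), Pcd (6.62 kb and 40.1 kb) and Sry-alpha (3.95 kb and 23.1 kb). Of the gene pairs in 1 TAD, 11 were so in D. virilis and 17 in D. melanogaster, and 9 were shared, 81.8% of the first and 52.9% of the second. Among the 17 is the pair Sry-alpha and Sry-beta, annotated over the same extent in D. melanogaster, so that it shares a TAD there necessarily. The D. melanogaster TAD given for Sry-alpha rests on that extent too.

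**Figure D5:**
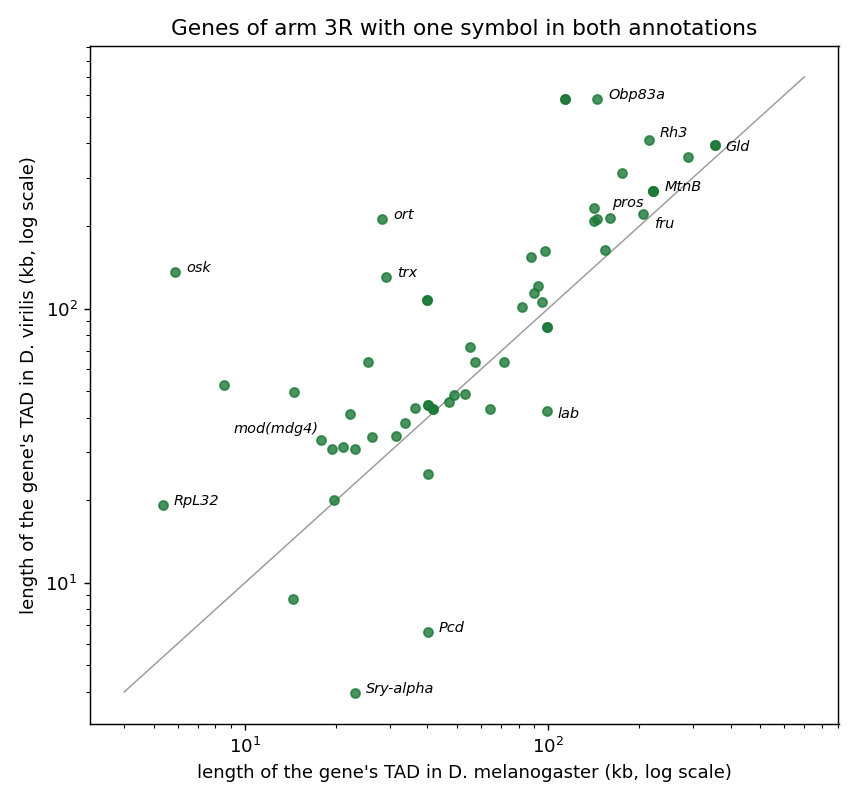
Each point is 1 of 60 genes with the same symbol on 3R of D. virilis and D. melanogaster, at the length of its TAD in D. virilis (vertical axis, kb, log scale) and in D. melanogaster (horizontal axis, kb, log scale), with the line of equal length. Most points lie above the line, and osk (136 kb in D. virilis, 5.90 kb in D. melanogaster) lies farthest above it.

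Set beside the other long arms of the same list, 3R carried 24.4% of the boundaries of D. virilis, 22.4% of those of D. busckii and 24.4% of those of D. melanogaster. Its median TAD differed from that of arms 2L, 2R, 3L and X together by -1.23 kb in D. virilis (38.7 kb and 39.9 kb), 0.630 kb in D. busckii (33.7 kb and 33.1 kb) and -1.48 kb in D. melanogaster (34.5 kb and 35.9 kb). The median of these 4 arms together lay within the interval of the 3R median in each species, which is a description and not a test. Taken singly, X of D. virilis (45.3 kb) and 2R of D. busckii (30.3 kb) lay outside that interval. A sparse end was not seen on 3R alone: the sparsest of 10 segments was at an end of the arm on 4 of 5 long arms of D. virilis and on 4 of 5 of D. melanogaster, and on 1 of 5, 3R, in D. busckii. The median score of 3R was the highest of the 5 long arms in D. virilis (-0.0314, against -0.0595 for the other 4 together). It was the third lowest in D. busckii (-0.0775, against -0.0604) and in D. melanogaster (-0.0837, against -0.0777). Scores above 0 made up 43.2% of boundaries on 3R of D. virilis against 36.0% over all arms, 37.4% against 38.7% in D. busckii and 28.3% against 28.8% in D. melanogaster.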

How the data were processed

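Boundary lists were deposited as start, end and score; the score is the authors' TAD-separation score from hicFindTADs of HiCExplorer, run on matrices at DpnII fragment resolution after BWA mapping, summing of 2 replicates and correction. The number of contacts behind a boundary is not in the lists. The other deposited columns are positions: the D. virilis annotation, moved by the authors with CrossMap, and a chain file of the assembled pieces. For D. melanogaster, Ensembl release 115 on BDGP6.54 gave the genes, transposable elements being left out, and RefSeq Release 6 the sequence. On 3R, 57.1% of 1076 boundary edges lay within 3 bp of a bin centre computed from its DpnII sites, against at most 2.70% after offsets of 1000 to 3000 bp. The lists of D. virilis and D. busckii are on the authors' assemblies, and 2 samples with no file used entered no step.

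Computed here were centres, lengths, medians with exact binomial rank intervals (95%), Wilson intervals, distances to starts and motif matches, in Python 3.11.15 (SciPy 1.17.1, NumPy 2.4.6, matplotlib 3.10.9); functions were tested on simulated data. Named genes are those at the 5 lowest scores, in the 5 longest and 3 gene-richest TADs, the longest coding genes, fixed lists and genes matched by symbol; nos, ksr, Rab11, slmb, AnxB9 and other single examples were picked after their values were seen. The members and lists were chosen with earlier results of these data known. Positions count from 1. Alternatives changed the boundaries, thresholds, windows and arms used.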

Additional observations from a re-analysis of the deposited data

Results flagged for a closer look

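The difference between the median boundary score of 3R and that of the other long arms had opposite signs between species: it was 0.0281 in D. virilis, -0.0171 in D. busckii and -0.00607 in D. melanogaster (3R minus 2L, 2R, 3L and X together). With 1 list per species the difference between species was not tested, and the negative values change sign when 1 arm is left out, as given under the processing.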

How the results depend on the processing

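Alternatives changed 1 choice at a time. Keeping only the stronger boundaries of each list (scores at or below the list's median) lowered the 3R density to 6.28 per Mb in D. virilis, 10.8 in D. busckii and 9.48 in D. melanogaster, lengthened the median TAD to 90.7, 48.5 and 63.5 kb in the same order, and raised the share of the span in long TADs to 78.8, 64.6 and 65.8%. With long TADs taken from 200 kb that share was 15.2% in D. busckii and 25.2% in D. melanogaster. The 3R minus other arms difference in median score became 0.00678 in D. busckii without 2R and 0.00119 in D. melanogaster without 3L. The share of D. virilis boundaries near a start was 50.7% within 500 bp, 78.2% within 2000 bp, 71.9% for the stronger boundaries and 74.4% from the nearest edge, and in D. melanogaster these were 66.2, 86.6, 87.4 and 83.1%. Within 250 and 1000 bp, Motif 1 stood at 7.43 and 13% of D. melanogaster boundaries, DRE at 11 and 19.7%, CTCF at 7.25 and 22.9% and GAGA at 7.62 and 26%. Leaving out the sparsest segment of 3R, chosen after seeing the data, changed none of 12 values by over 1.5 times or in direction. Of 83 values under alternatives, 54 stayed within the limit of their quantity, which was 1.5 times for densities and span shares, the 95% interval for median lengths and other shares, and a shift no wider than that interval's reach to one side for score differences. No paired analysis was possible because each species has 1 list of its summed replicates.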
